A study of Mus musculus with 19 samples.

Results

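Mononuclear cells of mouse hindlimb muscle were compared after a sort on lineage markers. The lineage-positive fraction (Lin+) is named in the labels as the endothelial and blood-derived cells, and the lineage-negative fraction (Lin-) is what the same sort left without those markers. Members were chosen by sample title: 4 Lin+ and 4 Lin- libraries, 8 of the 19 in the series. The other 11 libraries are the unsorted suspension and the Sca1 subfractions of the Lin- cells. All mice were C57BL/6J and were given tamoxifen at an age of 8 weeks (2.5 mg a day, 5 days in a row) and were then left for 10 days, so both fractions share that treatment. The labels name neither a transgene nor the antibodies of the lineage gate, and are silent on whether each replicate was its own animal. The p-values below are thus set against the spread among libraries alone, pooled within the 5 groups of all 19, and that spread may be technical. RNA abundance is given as FPKM, fragments scaled for the length of the gene model and for the mapped fragments of the library. Where 4 values are given for a fraction they stand in the order of replicates 1 to 4, and a value given against another is the mean of 4 Lin+ libraries against the mean of 4 Lin- libraries. A log2 difference is Lin+ minus Lin-, and ± after it gives its standard error from limma.

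Muscle holds many cell types beside its fibres. Capillary endothelium carries nutrients and leukocytes to the tissue, and resident macrophages clear debris and regulate iron and lipid. The cells outside both lineages include mesenchymal progenitors, which build the collagen matrix, satellite cells, which regenerate fibres, and mural, tendon and nerve sheath cells. Leukocytes and endothelium are known for their own members of widely used gene families, in actin control, G protein signalling, lipid mediators and adhesion, and it is these functions, rather than the usual surface markers, that are described here.

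The defining markers followed the labels. Pecam1, the endothelial adhesion protein, was at 363, 371, 164 and 316 FPKM in Lin+ and at 3.7, 5.6, 6.96 and 4.69 FPKM in Lin-. Ptprc, the pan-leukocyte phosphatase CD45, was at 129, 131, 182 and 83.4 FPKM in Lin+ and at 1.27, 0.616, 3.11 and 0.543 FPKM in Lin-. Pdgfra, the receptor of mesenchymal progenitors, was at 6.3, 5.31, 4.96 and 2.95 FPKM in Lin+ and at 132, 118, 85.9 and 84.2 FPKM in Lin-. The fractions did not overlap in any of these genes. Of the marker lists, all 19 tested macrophage and monocyte genes, 15 of 16 for blood endothelium, 8 of 9 for neutrophils and all 7 for mast cells were higher in Lin+, as were all 7 of MHC class II and all 13 for lymphocytes. Lower were all 16 tested genes for mesenchymal progenitors, all 14 of collagen and matrix, all 11 for satellite cells, all 8 for tenocytes, all 9 for Schwann cells, 10 of 12 for pericytes and smooth muscle and 15 of 16 for myofibres. The 3 other lists were divided or mostly not called. Of 5 lymphatic endothelial genes 2 were higher and 3 were lower in Lin+, and of 4 platelet genes 1 was higher and 1 was lower. Of 8 erythroid genes 2 were higher and 6 were not called, with 0.517% to 4.19% of summed FPKM in Lin+ and 0.123% to 2.41% in Lin-, highest there in replicate 3. No erythroid gene was called without Lin+ replicate 1 or 2 or Lin- replicate 1 or 2, 1 was called without replicate 4 of either fraction, and across all alternatives the count ran from 0 to 5. Without Lin+ replicate 3 or 4, 2 platelet genes were higher, and without Lin+ replicate 3, 1 neutrophil gene was lower. Macrophage genes held 2.58% to 4.55% of the summed FPKM in Lin+ and 0.00794% to 0.0174% in Lin-. Blood endothelial genes held 0.155% to 0.603% in Lin+ and 0.0189% to 0.0298% in Lin-. Mesenchymal progenitor genes held 0.256% to 0.437% in Lin+ and 3.94% to 5.74% in Lin-. Collagen and matrix genes held 0.15% to 0.184% in Lin+ and 2.44% to 4.74% in Lin-.

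Libraries stood apart in ways the labels do not explain. Within each fraction, replicates 1 and 2 resembled each other more than replicates 3 and 4, with rank correlations over genes of 0.983 in Lin+ and 0.976 in Lin- within the first pair and of 0.919 to 0.944 between the pairs. The pairs are called set A (replicates 1 and 2) and set B (replicates 3 and 4) here. Lin+ replicate 3 had the largest share of neutrophil genes, 12.6% of summed FPKM against 1.14% to 3.23% in the other Lin+ libraries, and the smallest share of blood endothelial genes, 0.155% against 0.352% to 0.603%. Lin- replicate 3 had the largest share of myofibre genes, 3.25% against 0.639% to 1.21%. Their part in the results below was not tested, but the counts of called genes, the list counts and the calls of the named genes were also computed without each library and within each set. The absolute depth is unknown, since FPKM carry no totals. The step that 1 fragment makes in low genes differed by up to 1.77 times between the 8 libraries.

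Of 14043 genes tested, 3558 (25.3%) were higher in Lin+ and 3620 (25.8%) were lower, by limma on log2(FPKM + 1) at an adjusted p under 0.05, together 51.1%, and the median difference was 0.00. At least a 2-fold change accompanied the call in 2096 genes (14.9%) that were higher and 2012 (14.3%) that were lower. The libraries of the 2 fractions did not overlap in 44.3% of genes. All 7178 called genes had the same sign in set A and in set B taken alone. The calls were made from these same libraries, which favours that outcome, so it is not independent support. These shares are the background for every gene group below. In bulk RNA, fewer cells of a type and less RNA per cell cannot be told apart.

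**Figure D1:**
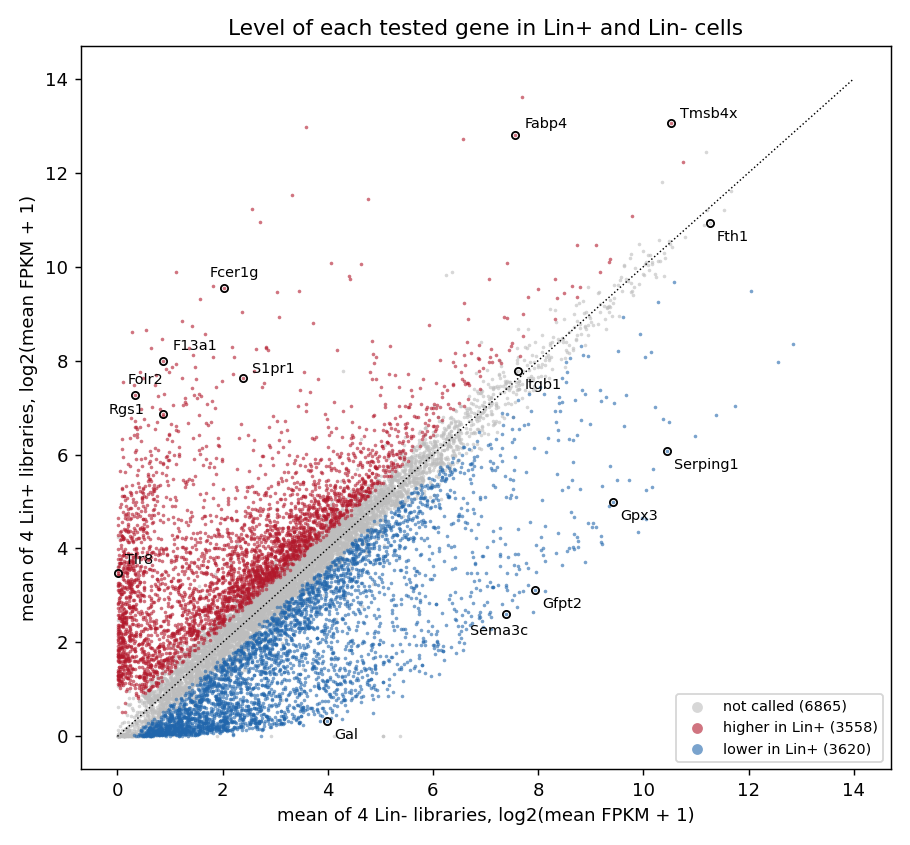
Mean level of each of the 14043 tested genes in the 4 Lin- libraries (x axis) and the 4 Lin+ libraries (y axis), as log2(mean FPKM + 1), with genes called higher in red, called lower in blue and not called in grey. Genes far above the dotted line of equality, such as Fcer1g and F13a1, reached larger differences than those far below it, such as Gfpt2 and Sema3c.

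The 2 directions differed in size on the log2(FPKM + 1) scale. Differences of at least 16-fold were reached by 280 genes that were higher in Lin+ and by 119 that were lower. These 16-fold counts were not repeated with another pseudocount. The 2-fold counts were 2405 higher and 2807 lower with a pseudocount of 0.1, so there the lower genes were the more numerous. Mesenchymal and collagen transcripts kept a larger share in Lin+ than macrophage transcripts did in Lin-. The median shares were 0.348% in Lin+ against 4.89% in Lin- for mesenchymal and 0.169% against 2.94% for collagen genes. For macrophage genes they were 0.0126% in Lin- against 3.19% in Lin+, and for blood endothelial genes 0.0243% against 0.455%. Relative to their own fraction, endothelial transcripts thus kept about as much in Lin- as collagen transcripts did in Lin+. The part of such remaining transcripts in this inequality was not tested. Outside the marker lists, the largest were Wfdc17, a secreted protein of macrophages (log2 difference 7.64), Lyz1, a lysozyme (7.59), Fcer1g, the signalling chain of Fc receptors (7.40), and F13a1, the clot-stabilising transglutaminase factor XIII (7.02). Tyrobp, an adaptor for activating receptors (6.91), Lilrb4 and Fcgr2b, both inhibitory receptors (6.88 and 6.74), Folr2, a folate receptor (6.87), Cd52 (6.82), the chemokine gene Ccl4 (6.81), Alox5ap (6.69) and Ear2, a ribonuclease (6.66), followed. Lyz1, Lilrb4 and Ear2 have near-identical copies among which reads may have been split, so their values are uncertain. F13a1 was at 205, 183, 182 and 449.6 FPKM in Lin+ and at 0.604, 0.827, 1.23 and 0.673 FPKM in Lin-, an adjusted p of 1.3e-12. Every Lin- library was close to 0 for this gene, and Lin+ replicate 4 was the highest.

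On the other side many genes encode secreted and matrix proteins, beside other enzymes and a receptor. Gfpt2, the rate-limiting enzyme of hexosamine synthesis, was at 7.25, 6.59, 10.9 and 5.82 FPKM in Lin+ and at 226, 211, 309 and 230.0 FPKM in Lin- (log2 difference -4.84 ± 0.18, adjusted p 2.7e-13). Sema3c, a secreted guidance cue, was at 5.11, 5.17, 5.99 and 4.13 FPKM in Lin+ and at 156, 158, 202 and 154 FPKM in Lin- (log2 difference -4.79). Neither gene overlapped between the fractions, and both were highest in replicate 3 of each. Igfbp6 (-4.81), the soluble pattern receptor gene Ptx3 (-4.78), the eosinophil attractant Ccl11 (-4.75), Krtdap (-4.67), the elastin cross-linker Loxl1 (-4.66) and the gelatinase Mmp2 (-4.65) were next. The ferritin receptor Scara5 (-4.61), the phospholipase Pla1a (-4.61), Fndc1 (-4.60) and the dipeptidase Dpep1 (-4.60) completed the 12 largest.

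Presence and absence were unequal as well, and the part of transcripts remaining from the other fraction's cells was not tested here either. In 80 genes (0.57% of those tested) every Lin+ library held at least 10 FPKM and every Lin- library under 0.5, and 76 of these were on no marker list. Only 2 genes (0.0142%) showed the reverse, the satellite cell factor Myf5 and Gal, which encodes the neuropeptide galanin. These counts depended on the limits and on single libraries: with at least 5 FPKM on one side and under 1 FPKM on the other they were 289 and 95. Without Lin- replicate 3 the first count was 131, and without Lin+ replicate 3 the second was 5. Gal was at 0.257, 0.352, 0.19 and 0.235 FPKM in Lin+ and at 10.7, 13.6, 17.3 and 18 FPKM in Lin-. Within the Lin- cells it reached 70.6 ± 38.9 FPKM (SD, n = 4) in the Sca1-negative and 0.121 ± 0.12 FPKM (SD, n = 3) in the Sca1-positive fraction. The most abundant of the 76 were Folr2, the lectin receptors Clec10a, Clec4a1, Clec4b1 and Cd209f, Pld4, an exonuclease of endolysosomes, Bcl2a1b, Fcrls, an Fc receptor-like protein, and the chemokines Ccl24 and Ccl12. Fcrls was at 94, 86.1, 80.3 and 58 FPKM in Lin+ and at 0.0305, 0.0641, 0.123 and 0.0512 FPKM in Lin-. The Clec4 and Bcl2a1 genes have close copies, so the split of reads within each family is uncertain. Endothelial genes stood among the 80 as well, such as the Notch ligand Dll4, at 31.9, 33.3, 18.6 and 46.6 FPKM in Lin+ and at 0.341, 0.251, 0.459 and 0.456 FPKM in Lin-.

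Of the 30 function lists, the largest median difference was in signalling just inside the membrane of leukocytes. All 20 listed kinases, phosphatases and adaptors next to immune receptors were higher in Lin+, with a median log2 difference of 4.25, against 25.3% of all genes. Laptm5, which limits receptor signalling from lysosomes, was at 209.8, 158, 244 and 164 FPKM in Lin+ and at 1.7, 0.92, 3.77 and 0.88 FPKM in Lin- (log2 difference 6.20 ± 0.36, adjusted p 4.7e-11). The exchange factor gene Cyth4 rose as well (58.9 against 0.373 FPKM). The inositol phosphatase Inpp5d (26.8 against 0.366 FPKM) and the tyrosine phosphatase Ptpn6 (57.9 against 0.973 FPKM), both brakes on these receptors, rose with the kinase Lyn (102 against 2.42 FPKM).

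The actin regulators of leukocytes were also mostly higher. Of 21 leukocyte actin regulators, 19 were higher, none was lower and 2 were not called, at a median of 3.94. Lcp1, an actin bundler, was at 219, 180.4, 427 and 253 FPKM in Lin+ and at 1.22, 1.07, 6.91 and 0.902 FPKM in Lin-, with its highest values in replicate 3 of both fractions. Hcls1, an actin regulator of haematopoietic cells, was at 84.3, 66.7, 102 and 55 FPKM in Lin+ and at 0.601, 0.695, 2.71 and 0.227 FPKM in Lin-. Nckap1l, the WAVE complex subunit Hem1, was at 71.2, 60.3, 60.1 and 36.9 FPKM in Lin+ and at 0.469, 0.273, 1.21 and 0.196 FPKM in Lin-. None of these 3 overlapped. Capg and Wipf1 were the genes not called, at 74.1 against 56.1 FPKM and 34.8 against 32.3 FPKM. With the replicate number as a block Capg was higher (adjusted p 0.04). In the broader list of focal adhesion and actin bundling proteins the direction was mixed: 5 of 26 were higher, 9 were lower and 12 were not called (median -0.39). Over all genes 25.3% were higher and 25.8% were lower. The muscle-type tropomyosins Tpm2 (21.2 against 279 FPKM) and Tpm1 (129 against 1187 FPKM) and the LIM proteins Fhl1 (33.2 against 189 FPKM) and Csrp2 (15.5 against 83.9 FPKM) fell, while the parvins Parvb (18 against 0.49 FPKM) and Parvg (14.1 against 0.39 FPKM) rose. Tpm1 was at 373, 488, 2812 and 1076 FPKM in the Lin- libraries, highest in replicate 3, the library with the most myofibre transcripts, and the part of fibre RNA in this difference was not tested.

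Many of these genes have a close relative that is known from most cell types. In 32 pairs of related genes, listed with the member known from leukocytes or endothelium first, the first member was higher in Lin+ in all 32, as the way the pairs were listed favours. The second member was lower in 7, higher in 8 and not called in 17. With the replicate number as a block, 11 second members were lower and 10 were higher. The log2 ratio of first to second within a library did not overlap between the fractions in 31 pairs, Apbb1ip and Raph1 being the exception. In Lin- cells the second member had the higher mean in 28 pairs, and in Lin+ cells the first member had the higher mean in 24. The way the pairs were listed favours these counts and the shift of the ratios too, and no such counts were made for other gene pairs.

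**Figure D2:**
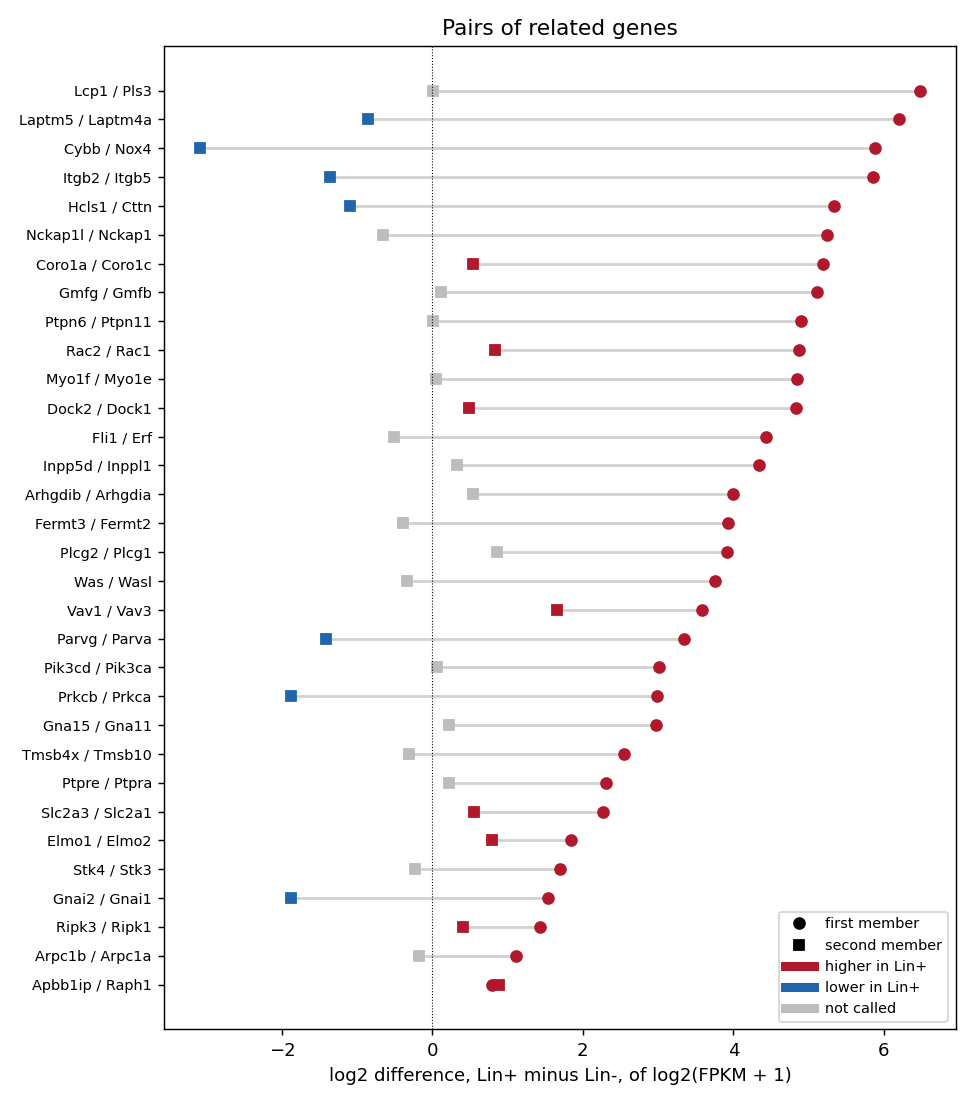
Log2 difference between Lin+ and Lin- (x axis) of the first (circle) and second (square) member of 32 pairs of related genes, coloured by the call. Every circle is red, whereas 7 squares are blue, 8 are red and 17 are grey.

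Of the plastins, Lcp1 had a log2 difference of 6.47 ± 0.39, while Pls3 was at 92, 118, 71.3 and 133 FPKM in Lin+ and at 84.8, 103, 92.4 and 125 FPKM in Lin-, a difference of 0.01 ± 0.18 with an adjusted p of 0.97. Cybb, the catalytic subunit of the phagocyte NADPH oxidase, was at 97.6, 81.6, 120.4 and 68.7 FPKM in Lin+ and at 0.196, 0.412, 1.7 and 0.235 FPKM in Lin-. Its relative Nox4, a constitutively active oxidase, was at 1.24, 1.58, 1.43 and 0.985 FPKM in Lin+ and at 20.4, 22.1, 18.8 and 13.7 FPKM in Lin-. These genes moved in opposite directions with no overlap in either, with log2 differences of 5.89 and -3.08. Among the G protein alpha subunits that inhibit adenylyl cyclase, Gnai2 was at 281, 222, 316 and 292 FPKM in Lin+ and at 83.8, 82.4, 104 and 111 FPKM in Lin-, and Gnai1 at 2.35, 2.36, 1.9 and 2.06 FPKM in Lin+ and at 9.6, 12.3, 8.69 and 12.6 FPKM in Lin-. Gnai1 was the lower-expressed form in both fractions and was 29.8 ± 3.82 FPKM (SD, n = 4) in the Sca1-negative Lin- fraction. The protein kinase C genes Prkcb (10.2 against 0.395 FPKM) and Prkca (1.98 against 9.96 FPKM), the integrin chains Itgb2 (102 against 0.686 FPKM) and Itgb5 (17.5 against 45 FPKM), the parvins Parvg and Parva (17.5 against 45 FPKM) and the cortactin relatives Hcls1 and Cttn (18.7 against 39.1 FPKM) were likewise opposed. Laptm4a (275 against 495 FPKM), the relative of Laptm5, was lower in Lin+ but its libraries overlapped. The log2 difference was 4.87 for Rac2 and 0.83 for Rac1, and Rac1 was the more abundant in both fractions (332 against 180.1 FPKM). The calls of Rac1, Coro1c and Ripk1 were lost in a set alone or in a fit of the 2 fractions alone. Those of 3 more pair members were lost without single libraries: Dock1 without Lin+ replicate 1, 2 or 4 or Lin- replicate 2, 3 or 4 (log2 differences of 0.38 to 0.50), Apbb1ip without Lin+ replicate 3 or 4 or Lin- replicate 1 or 2 (0.46 to 0.81), and Slc2a1 without Lin+ replicate 3 (0.42).

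The promoters of 2 such pairs are printed to show how unlike the sequences before related genes can be, and were chosen after the values of the pairs were seen. Each is the 250 bases before the RefSeq start, on the gene's strand, in build GRCm38.p6 (the table's build, mm10, is the same assembly). Capitals mark CG dinucleotides and each match to GAGGAAG, on either strand, the letters of a site that the ETS factor PU.1 is known to bind. Gna15 (chr10:81524226-81524475, minus strand) and Gna11 (chr10:81545163-81545412, minus strand) are neighbours on chromosome 10. Cybb lies on the X chromosome (chrX:9469325-9469574, minus strand) and Nox4 on chromosome 7 (chr7:87246399-87246648, plus strand). The window of Gna15 and of Cybb ends where the gene of the deposited table starts, and those of Gna11 and Nox4 end 116 and 146 bases before it.
Gna15: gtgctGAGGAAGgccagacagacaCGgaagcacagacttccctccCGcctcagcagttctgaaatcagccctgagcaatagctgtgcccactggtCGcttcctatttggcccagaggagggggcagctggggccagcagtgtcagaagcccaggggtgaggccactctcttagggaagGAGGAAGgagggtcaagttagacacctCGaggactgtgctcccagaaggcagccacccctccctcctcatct
Gna11: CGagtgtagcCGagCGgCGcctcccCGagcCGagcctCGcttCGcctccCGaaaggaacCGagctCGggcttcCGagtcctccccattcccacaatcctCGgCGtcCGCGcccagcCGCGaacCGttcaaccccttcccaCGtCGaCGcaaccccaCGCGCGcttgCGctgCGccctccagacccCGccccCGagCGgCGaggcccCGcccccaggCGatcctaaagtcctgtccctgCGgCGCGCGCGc
Cybb: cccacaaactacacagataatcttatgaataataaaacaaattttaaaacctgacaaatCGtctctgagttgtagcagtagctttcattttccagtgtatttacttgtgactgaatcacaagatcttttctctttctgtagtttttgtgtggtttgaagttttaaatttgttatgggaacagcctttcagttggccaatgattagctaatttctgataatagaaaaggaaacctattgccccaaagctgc
Nox4: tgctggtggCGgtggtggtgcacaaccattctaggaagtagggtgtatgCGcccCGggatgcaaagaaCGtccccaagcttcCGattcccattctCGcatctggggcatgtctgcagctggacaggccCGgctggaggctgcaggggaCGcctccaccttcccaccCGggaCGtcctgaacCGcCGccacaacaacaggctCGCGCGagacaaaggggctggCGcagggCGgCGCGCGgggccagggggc

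Gna15, a haematopoietic G protein subunit, was at 7.52, 7.28, 8.18 and 6.61 FPKM in Lin+ and at 0.062, 0.0651, 0.167 and 0.001 FPKM in Lin-. Its neighbour Gna11, the widely expressed form, was at 20.5, 17, 6.7 and 9.98 FPKM in Lin+ and at 13.6, 12.2, 7.84 and 9.51 FPKM in Lin-. Gna15 was thus near absent in Lin- cells, while the ranges of Gna11 overlapped (adjusted p 0.52). The Gna15 window held 4 CG dinucleotides and 2 matches to GAGGAAG, which begin 245 and 72 bases before the start, and the Gna11 window held 38 and no match. The Cybb window held 1 CG dinucleotide and the Nox4 window 20, with no match in either. Among the 12 pairs with exactly 1 promoter in the table for both members, the second member had more CG dinucleotides in 10.

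The same letters were counted over all genes. Over the 8173 tested genes with 1 promoter in the table, the median was 16 CG dinucleotides in 250 bases (quartiles 9 and 22). It was 17 in the 4112 genes not called, 8 in the 1172 that were higher in Lin+ by at least 2-fold and 12 in the 1100 that were lower by as much. Among the largest differences it was 3 in the 158 genes higher by at least 16-fold and 5 in the 73 genes lower by as much. GAGGAAG occurred on either strand in 11.2% of all these promoters, in 20% of those higher by at least 2-fold, in 29.7% of those higher by at least 16-fold in 9.36% of those lower by at least 2-fold and in 19.2% of those lower by at least 16-fold. Its own letters hold no CG. These are descriptions of letters in a fixed window, not binding sites.

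Transcription factors listed for blood and vessels went one way, as the choice of the list favours. All 24 were higher in Lin+, at a median of 3.65, against 25.3% of all genes. Sfpi1, the table's symbol for the gene of PU.1, the master regulator of macrophages, was at 47.1, 32.3, 90.5 and 50.9 FPKM in Lin+ and at 0.378, 0.149, 1.28 and 0.239 FPKM in Lin-. The endothelial factor Sox18 was at 42.3, 38.7, 51.4 and 119 FPKM in Lin+ and at 0.649, 0.842, 1.39 and 1.57 FPKM in Lin-, and Sox17 was at 23.5, 28.3, 30.2 and 66.9 FPKM in Lin+ and at 0.359, 0.675, 1.04 and 0.379 FPKM in Lin-. Sfpi1 was highest in Lin+ replicate 3 and both Sox genes in replicate 4, so Sfpi1 and these Sox genes did not share their order over libraries. Hhex was at 23.5, 31.6, 28.6 and 28.1 FPKM in Lin+, almost level across the libraries. Lmo2, with 62.1 against 34.6 FPKM, was not called in set A alone.

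**Figure D3:**
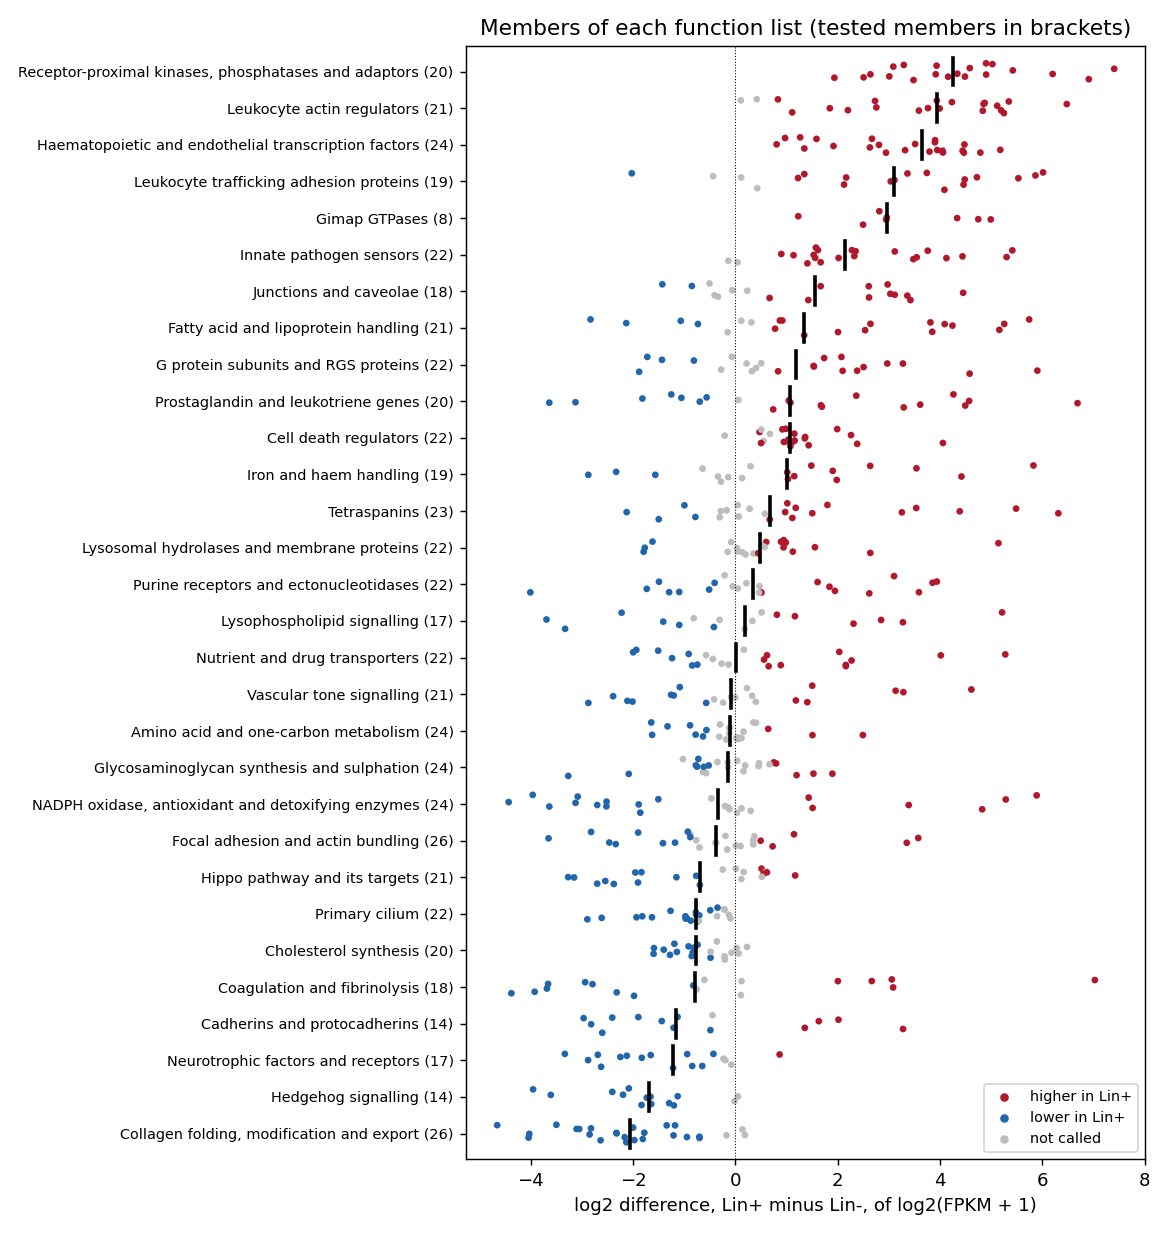
Log2 difference between Lin+ and Lin- (x axis) of each tested member of 30 function lists, 1 list to a row, ordered by the list's median (black bar). Red points were called higher in Lin+, blue points lower, and grey points were not called, with numbers of tested members in brackets.

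Sensors of microbes were mostly higher in Lin+. Of 22 innate sensors, 20 were higher, none was lower and 2 were not called (median 2.15). Tlr7, an endosomal receptor for single-stranded RNA, was at 19.2, 18, 15.8 and 16.5 FPKM in Lin+ and at 0.0157, 0.0494, 0.0632 and 0.0785 FPKM in Lin-. Tlr8, its relative, was at 10.7, 9.14, 10.2 and 10.6 FPKM in Lin+ and was listed at the table's lowest value, 0.001 FPKM, in all 4 Lin- libraries. Clec7a, the glucan receptor dectin-1 (85.9 against 0.969 FPKM), Cd14, the co-receptor for lipopolysaccharide (114 against 1.95 FPKM), and Clec4e (35.7 against 0.27 FPKM) had the largest differences. The exceptions were Tlr4, the lipopolysaccharide receptor, at 10.6, 11.2, 12.8 and 12.5 FPKM in Lin+ and at 18.9, 16, 10.03 and 9.4 FPKM in Lin-, and Myd88, the adaptor shared by most of these receptors (22.1 against 21.5 FPKM). For both, the libraries of the fractions overlapped.

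Oxidant enzymes split by side. The phagocyte oxidase subunits Cybb, Ncf1 (62.4 against 0.553 FPKM), Ncf4 (34.2 against 0.192 FPKM) and Cyba (101 against 34.8 FPKM) and the glutathione peroxidase Gpx1 (235 against 84.8 FPKM) were among the 6 of 24 genes higher in Lin+. Another 11 were lower, and 7 were not called. Gpx3, the secreted glutathione peroxidase, was at 27.2, 27.3, 36.4 and 32.1 FPKM in Lin+ and at 598, 716, 697 and 716 FPKM in Lin- (log2 difference -4.43 ± 0.21, adjusted p 3.5e-12). Sod3, the extracellular superoxide dismutase, was at 5.56, 4.02, 8.58 and 3.85 FPKM in Lin+ and at 93, 99.7, 95.9 and 97.7 FPKM in Lin-. Both lower genes varied little among the Lin- libraries. Gpx8 (7.42 against 105 FPKM), a peroxidase of the endoplasmic reticulum, also fell. The cytosolic and mitochondrial dismutases Sod1 (341 against 337 FPKM) and Sod2 (13.3 against 14.5 FPKM) and catalase, Cat (38 against 34.5 FPKM), were not called.

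Cell death genes leaned one way. Of 22 regulators, 18 were higher in Lin+, none was lower and 4 were not called (median 1.06), and both killers and protectors were among the 18. Pmaip1, the BH3 protein Noxa, was at 30.3, 37.4, 71.8 and 35.6 FPKM in Lin+ and at 1.37, 1.27, 2.12 and 1.5 FPKM in Lin-. Casp8, the initiator caspase of death receptors, was at 41.3, 47.7, 78.2 and 72.7 FPKM in Lin+ and at 7.89, 8.27, 13 and 13.3 FPKM in Lin-, with replicates 3 and 4 above 1 and 2 in each fraction. Bid (14.5 against 2.2 FPKM), a death-promoting BH3 protein, rose with the protectors Mcl1 (304 against 137 FPKM) and Bcl2l1 (18 against 6.15 FPKM). Bax, the pore former, was not called (25.4 against 17.5 FPKM), but was higher with the replicate number as a block (adjusted p 0.0041).

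Leukotriene genes were higher in Lin+, and prostaglandin genes lay on both sides. Of 20 genes, 12 were higher, 7 were lower and 1 was not called. Alox5ap, which presents arachidonic acid to 5-lipoxygenase, was at 302, 231, 373 and 202 FPKM in Lin+ and at 1.89, 1.82, 2.24 and 0.804 FPKM in Lin-, and Alox5, the lipoxygenase itself, was at 25.7, 21.9, 28.2 and 22.9 FPKM in Lin+ and at 0.084, 0.0663, 0.424 and 0.0176 FPKM in Lin-. The leukotriene receptor Cysltr1 (20.3 against 0.0855 FPKM) and thromboxane synthase, Tbxas1 (25.4 against 0.106 FPKM), were also higher. So were the leukotriene A4 hydrolase Lta4h (57.1 against 27.3 FPKM), the prostaglandin D synthase Hpgds (11.9 against 0.0391 FPKM) and the prostaglandin E2 receptor Ptger4 (23.5 against 3.76 FPKM). Prostacyclin synthase, Ptgis, was at 1.16, 1.19, 0.615 and 0.482 FPKM in Lin+ and at 24.5, 29.4, 19.4 and 16.3 FPKM in Lin-. Ptges, which makes prostaglandin E2, was at 0.888, 0.63, 0.902 and 0.319 FPKM in Lin+ and at 13.3, 16.8, 14.8 and 10.2 FPKM in Lin-. Alox5 was thus near 0 in Lin- cells, while Lta4h was not, and Ptgis and Ptges were low in Lin+ cells. Ptgs2, the inducible cyclooxygenase, was at 52.5, 43.9, 69.3 and 9.52 FPKM in Lin+ and 81.7, 71.7, 66.6 and 80.8 FPKM in Lin-, lower in Lin+ with an adjusted p of 0.048 but overlapping. That call was lost with the replicate number as a block (adjusted p 0.09) and without any 1 of Lin+ replicates 2 and 4 and all 4 Lin- replicates, with log2 differences of -0.46 to -1.16, and the count of 7 lower genes was 4 without Lin- replicate 2.

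Genes of fat handling were mostly higher in Lin+. Of 21 genes, 14 were higher, 4 were lower and 3 were not called (median 1.34). Fabp4, a fatty acid carrier of capillaries and macrophages, was at 4871, 6347, 3855 and 13419 FPKM in Lin+ and at 91.3, 194, 249 and 218 FPKM in Lin-. Gpihbp1, which anchors lipoprotein lipase on capillaries, was at 384, 358, 103 and 227 FPKM in Lin+ and at 2.32, 5.03, 4.99 and 2.33 FPKM in Lin-, and was lowest in Lin+ replicate 3. The fatty acid transporter Cd36 was at 888, 1182, 478 and 839.5 FPKM in Lin+ and at 17.2, 25.3, 19.9 and 19 FPKM in Lin-. All 3 were separated widely. Lpl, the lipase that Gpihbp1 binds, was not called and was at 191, 207, 339 and 239 FPKM in Lin+ and at 205, 273, 326 and 270.4 FPKM in Lin-. The lipoprotein receptors Vldlr (1.14 against 14.4 FPKM) and Lrp1 (14.5 against 68.5 FPKM) fell. Cholesterol synthesis showed no higher gene: 12 of 20 were lower and 8 were not called (median -0.78), and 7 were lower in set B alone. Sqle, squalene epoxidase, was at 5.01, 6.23, 7.37 and 5.68 FPKM in Lin+ and at 17.3, 19.4, 17.7 and 28 FPKM in Lin-, and Hmgcs1, which makes the precursor of mevalonate, was at 19.2, 23.9, 23.4 and 16.6 FPKM in Lin+ and at 56.9, 67.1, 60.4 and 74.2 FPKM in Lin-. Srebf2, the regulator of the pathway, was not called (11.2 against 14.7 FPKM) and was lower with the replicate block (adjusted p 0.035).

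**Figure D4:**
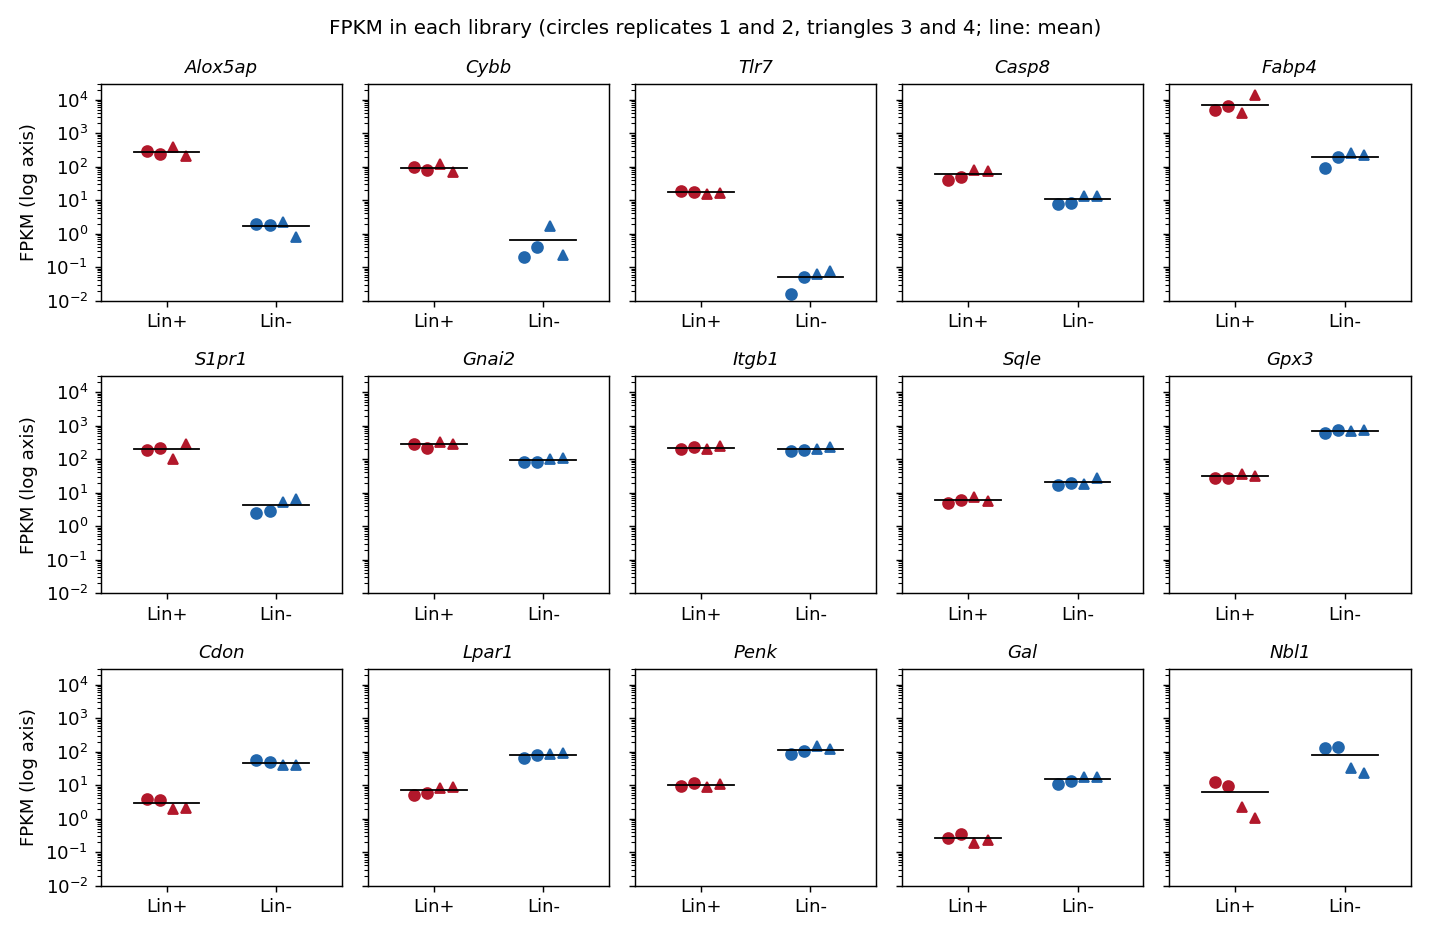
FPKM (log axis) of 15 genes in each Lin+ (red) and Lin- (blue) library, with circles for replicates 1 and 2, triangles for replicates 3 and 4, and a line at the mean of 4. The fractions did not overlap in any of these genes except Itgb1, and Nbl1 differed between replicates 1 and 2 and replicates 3 and 4 in both fractions.

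Endothelial junction and caveola genes were mostly higher in Lin+, and transporters were split. Of 18 junction and caveola genes, 11 were higher, 2 were lower and 5 were not called (median 1.54). Cav2, a caveolin, was at 259, 355, 155 and 305 FPKM in Lin+ and at 26.6, 34.4, 23.3 and 32.3 FPKM in Lin-, and Cldn5, the claudin of endothelial tight junctions, was at 73, 72.5, 10.7 and 17.2 FPKM in Lin+ and at 0.531, 0.789, 0.477 and 0.261 FPKM in Lin-. Cldn5 was lower in Lin+ replicates 3 and 4 than in 1 and 2. Ptrf, the caveola coat protein cavin-1, was not called (197 against 154 FPKM), and Prkcdbp, cavin-3, was lower in Lin+ (57 against 158 FPKM). Of 22 transporters, 10 were higher, 7 were lower and 5 were not called. The nucleoside carrier Slc28a2 was at 90.7, 109, 28.2 and 51.9 FPKM in Lin+ and at 0.885, 0.931, 0.242 and 0.533 FPKM in Lin-, and the drug exporters Abcb1a (41.9 against 1.44 FPKM) and Abcg2 (47.5 against 9.37 FPKM) were also higher. The glutamine carrier Slc1a5 was at 25.1, 24.4, 33.8 and 26.8 FPKM in Lin+ and at 93.1, 112, 121 and 106 FPKM in Lin-, and the glutamate carrier Slc1a3 fell with it (0.289 against 4.13 FPKM).

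Signals of vessel tone and lysophospholipids were divided between the fractions. Of 21 genes of vascular tone, 6 were higher, 8 were lower and 7 were not called, against 25.3% higher and 25.8% lower of all genes. Higher were the apelin receptor Aplnr (54.9 against 0.834 FPKM), nitric oxide synthase Nos3 (13.1 against 0.286 FPKM) and the endothelin receptor Ednrb (70.8 against 6.51 FPKM). Lower were the angiotensin receptor Agtr1a (2.85 against 27.3 FPKM), angiotensin-converting enzyme, Ace (33.4 against 168 FPKM), adrenomedullin, Adm (10.3 against 43.6 FPKM), and the other endothelin receptor, Ednra (3.95 against 10.6 FPKM). S1pr1, the sphingosine 1-phosphate receptor of endothelium and lymphocytes, was at 186, 208, 103 and 286 FPKM in Lin+ and at 2.5, 2.82, 5.37 and 6.29 FPKM in Lin-. The exporter of that lipid, Spns2, was also higher (17.6 against 0.717 FPKM), while the receptor S1pr3 was lower (4.44 against 24.6 FPKM). Enpp2, autotaxin, which makes lysophosphatidic acid, was at 5.75, 7.06, 5.07 and 4.18 FPKM in Lin+ and at 95.8, 102, 71.2 and 65.4 FPKM in Lin-, and its receptor Lpar1 was at 5.07, 5.94, 8.35 and 8.7 FPKM in Lin+ and at 64.1, 77.3, 82.6 and 90.8 FPKM in Lin-. Enzyme and receptor were thus both low in Lin+. Of the 17 lysophospholipid genes tested, 6 were higher, 6 were lower and 5 were not called.

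Purine genes had the same mixed shape, with 9 of 22 higher, 7 lower and 6 not called. The receptors P2ry12 (25.9 against 0.698 FPKM) and P2ry13 (11.8 against 0.0341 FPKM) and the ATP-hydrolysing enzyme Entpd1 (45.6 against 12 FPKM) were higher. P2ry10 (21 against 0.386 FPKM) is counted among the 9 by its symbol, although it encodes a lysophospholipid receptor. Entpd2, which hydrolyses ATP mainly to ADP, was at 4.13, 3.69, 2.49 and 1.2 FPKM in Lin+ and at 88.6, 88.1, 40.4 and 36.7 FPKM in Lin-, and Nt5e, which makes adenosine, was lower too (2.07 against 7.58 FPKM). Within Lin- cells, Entpd2 was 188 ± 29.7 FPKM (SD, n = 3) in the Sca1-positive and 6.98 ± 1.1 FPKM (SD, n = 4) in the Sca1-negative fraction. Of the proteins that switch off G protein signals, Rgs1 was at 85.9, 129, 178 and 66.5 FPKM in Lin+ and at 0.806, 0.796, 0.768 and 0.879 FPKM in Lin-, and Rgs18 at 19.8, 26.3, 41.4 and 25.5 FPKM in Lin+ and at 0.131, 0.207, 0.443 and 0.001 FPKM in Lin-. Of 22 G protein and RGS genes, 12 were higher, 4 were lower and 6 were not called. All 8 Gimap GTPases, proteins of lymphocyte survival encoded side by side, were higher, from Gimap4 (101 against 2.21 FPKM) to Gimap7 (1.65 against 0.0925 FPKM).

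Adhesion proteins of leukocyte traffic were higher in 15 of 19, lower in 1 and not called in 3 (median 3.11), and 2 were lower with the replicate number as a block. Itgam, the integrin chain CD11b, was at 80.0, 67, 159 and 84.5 FPKM in Lin+ and at 0.286, 0.314, 1.17 and 0.187 FPKM in Lin-, and Podxl, a sialomucin of endothelium, was at 196, 209.8, 49.9 and 134 FPKM in Lin+ and at 1.65, 2.52, 1.9 and 1.33 FPKM in Lin-. Vcam1, the endothelial ligand of leukocyte integrins and also a satellite cell protein, was the gene that was lower, at 8.45, 8.29, 6.55 and 5.62 FPKM in Lin+ and at 34.8, 38, 29.4 and 27.5 FPKM in Lin-. Of 23 tetraspanins, 12 were higher, 4 were lower and 7 were not called, with Cd53 (156 against 0.836 FPKM) and Tspan13 (312 against 6.04 FPKM) the largest, and Tspan11 (0.817 against 7.53 FPKM) and Tspan3 (32.8 against 94.1 FPKM) on the other side. Cadherins ran the other way, with 9 of 14 lower, 4 higher and 1 not called. Cdh11, the mesenchymal cadherin, was at 1.33, 1.59, 1.7 and 1.15 FPKM in Lin+ and at 12.5, 14.1, 13.1 and 29.2 FPKM in Lin-. Pcdh18 (1.23 against 16.6 FPKM) and the satellite cell cadherin Cdh15 (0.111 against 5.84 FPKM) fell too, while the vascular Pcdh12 (15.7 against 0.535 FPKM) rose.

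Blood clotting was shared out between the fractions. Of 18 genes, 9 were lower, 5 were higher and 4 were not called. Beside F13a1, the higher genes were Vwf (14 against 0.557 FPKM), F5 (10.8 against 0.179 FPKM), F10 (3.32 against 0.0145 FPKM) and the urokinase receptor Plaur (32.9 against 3.69 FPKM). Tissue factor, F3, which starts clotting, was at 7.92, 7.58, 16.6 and 4.13 FPKM in Lin+ and at 125, 146, 86.5 and 109 FPKM in Lin-. Procr, the receptor of the anticoagulant protein C, was at 13.8, 15.6, 12.1 and 13.3 FPKM in Lin+ and at 168, 208, 162 and 217 FPKM in Lin-. Serping1, the inhibitor of the contact and complement proteases, was at 76.8, 68.1, 74.7 and 46.2 FPKM in Lin+ and at 1416, 1772, 1287 and 1117 FPKM in Lin-. The 3 genes were lower in Lin+ without overlap, and the plasminogen activators Plat (13.1 against 107 FPKM) and Plau (34.3 against 177 FPKM) fell with them, as did Serpine2 (11.6 against 185 FPKM), an inhibitor of both. Urokinase and its receptor thus lay on opposite sides.

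Iron and lysosome genes were mixed. Of 19 iron and haem genes, 10 were higher, 3 were lower and 6 were not called (median 1.01). Cd163, the haemoglobin scavenger receptor of macrophages, was at 87.5, 81.2, 56.9 and 82.9 FPKM in Lin+ and at 0.269, 0.39, 0.57 and 0.243 FPKM in Lin-. Haem oxygenase, Hmox1 (95.8 against 15 FPKM), and the iron exporter Slc40a1 (10.3 against 2.01 FPKM) were also higher, and the metalloreductases Steap3 (4.13 against 38.8 FPKM) and Steap4 (21.8 against 114 FPKM) were lower. Lcn2, a siderophore binder of neutrophils, was at 276, 96.3, 1327 and 85.9 FPKM in Lin+, highest in replicate 3, where neutrophil genes were also highest. Of 22 lysosomal genes, 10 were higher, 3 were lower and 9 were not called. Ctsc, the protease that activates leukocyte serine proteases, was at 162, 167, 229 and 322 FPKM in Lin+ and at 4.72, 4.78, 4.89 and 5.76 FPKM in Lin-, and Ctsl, another cathepsin, at 132, 159, 125 and 205 FPKM in Lin+ and at 448, 575, 415 and 462 FPKM in Lin-.

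The machinery that makes collagen was higher in Lin- cells. None of 26 genes for collagen folding, modification and export was higher in Lin+, 23 were lower and 3 were not called (median -2.07). Kdelr3, a retrieval receptor of the endoplasmic reticulum, was at 3.27, 3.82, 2.01 and 3.33 FPKM in Lin+ and at 64, 81.3, 49.7 and 72.2 FPKM in Lin-. Pcolce, which enhances the trimming of procollagen, was at 28.2, 24.3, 19 and 25.7 FPKM in Lin+ and at 400.0, 426, 379.8 and 431 FPKM in Lin-, and Serpinh1, the collagen chaperone HSP47, was at 84.3, 68.8, 61.2 and 126 FPKM in Lin+ and at 359.9, 325, 415 and 599 FPKM in Lin-. None overlapped. The 3 genes not called were the lysyl hydroxylases Plod1 (28.2 against 22.7 FPKM) and Plod3 (12.8 against 14 FPKM) and the collagen galactosyltransferase Glt25d1 (36.3 against 32.6 FPKM). Proline synthesis was in the same direction through Aldh18a1 (3.8 against 14 FPKM), and serine synthesis through Phgdh (1.52 against 6.92 FPKM). Both stood within a list of 24 amino acid genes. Of these, 7 were lower, 3 were higher and 14 were not called, against 25.8% lower and 25.3% higher of all genes. The 3 that were higher were Asl (7.08 against 4.28 FPKM) and the arginases Arg2 (7.46 against 0.174 FPKM) and Arg1 (2.71 against 0.138 FPKM). The call of Asl was lost without Lin+ replicate 1, 2 or 3 or Lin- replicate 1 or 4 (log2 differences of 0.41 to 0.67).

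Genes of the primary cilium, a sensory antenna that most blood cells lack, and of the hedgehog pathway that works through it, were mostly lower in Lin+. Of 22 cilium genes, 16 were lower, none was higher and 6 were not called (median -0.77), and only 6 were lower by at least 2-fold. Of 14 hedgehog genes, 12 were lower, all by at least 2-fold, none was higher and 2 were not called (median -1.70). The cilium gene with the largest difference was Evc. Evc, which relays the hedgehog signal at the cilium base, was at 0.769, 1.07, 1.28 and 0.288 FPKM in Lin+ and at 13.6, 13.7, 13.7 and 9.41 FPKM in Lin-. The hedgehog co-receptor Cdon was at 3.89, 3.56, 1.97 and 2.12 FPKM in Lin+ and at 55.2, 47.7, 39.2 and 40.7 FPKM in Lin-, and Gas1, another co-receptor, at 5.78, 6.3, 10.6 and 10.4 FPKM in Lin+ and at 88.6, 121, 140.4 and 246 FPKM in Lin-. Smo, the transducer, was at 2.53, 2.03, 2.23 and 1.58 FPKM in Lin+ and at 16.7, 15.9, 7.67 and 10.2 FPKM in Lin-. All 4 were without overlap, and Gas1 was highest in Lin- replicate 4. The transcription factors Gli3 (0.283 against 5.02 FPKM) and Gli1 (0.308 against 3.45 FPKM) fell as well. Ptch1, the receptor and also a target of the pathway, was not called (2.46 against 2.51 FPKM).

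The Hippo pathway, which links cell shape to growth through the coactivators YAP and TAZ, was 11 lower, 4 higher and 6 not called of 21 genes (median -0.70). The target gene Ctgf, a matrix-associated growth factor, was at 15.5, 20.2, 23.8 and 21.6 FPKM in Lin+ and at 140.0, 158, 184 and 296 FPKM in Lin-, and the cofactor Vgll3 was at 0.765, 0.723, 0.992 and 0.62 FPKM in Lin+ and at 16.7, 18.5, 16 and 13.6 FPKM in Lin-. Frmd6 (6.66 against 50.3 FPKM), Fat1 (0.948 against 10.7 FPKM) and the DNA-binding partner Tead1 (3.23 against 13.9 FPKM) fell, while Tead4 rose (2.04 against 0.252 FPKM). The coactivator genes themselves lay on opposite sides, Yap1 at 12.7, 14.1, 6.03 and 14.2 FPKM in Lin+ and at 19.7, 23.1, 16 and 20.9 FPKM in Lin- and Wwtr1, which encodes TAZ, at 53.2, 68.2, 32.4 and 66.8 FPKM in Lin+ and at 33.9, 36.8, 35.9 and 41.6 FPKM in Lin-. The Wwtr1 libraries overlapped, and its call was lost without Lin+ replicate 2 or 4 or Lin- replicate 1, 2 or 3 (log2 differences of 0.39 to 0.51). The count of 4 higher Hippo genes was 1 without Lin+ replicate 4, and 2 without Lin+ replicate 2 or Lin- replicate 2 or 3.

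Neurotrophic genes were also lower in Lin+, with 13 of 17 lower, 1 higher and 3 not called (median -1.22). Penk, the enkephalin precursor, was at 9.26, 11.3, 8.8 and 11 FPKM in Lin+ and at 84, 102, 143 and 122 FPKM in Lin-. Ntrk2, the receptor of brain-derived neurotrophic factor, was at 2.64, 2.74, 3.45 and 2.71 FPKM in Lin+ and at 28.6, 24.5, 26.6 and 30.9 FPKM in Lin-. The means of Penk were 10.1 ± 1.25 FPKM in Lin+ and 113 ± 25.4 FPKM in Lin- (SD, n = 4), and both genes were separated. Cntfr (0.197 against 6.66 FPKM), Gfra1 (0.433 against 7.99 FPKM), Ret (1.71 against 12 FPKM) and Cntf (1.68 against 7.56 FPKM) fell too. The gene that rose was Gfra2 (10.4 against 4.99 FPKM). Schwann cell markers moved with these genes: all 9 tested were lower in Lin+, and they held 0.0292% to 0.0336% of summed FPKM in Lin+ and 0.295% to 0.337% in Lin-. Their part in the neurotrophic difference was not tested.

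Of 24 genes for glycosaminoglycan synthesis and sulphation, 5 were higher, 7 were lower and 12 were not called. These counts were close to the background of 25.3% higher and 25.8% lower over all genes. With the replicate number as a block 11 were lower, as were 4255 of the 14043 genes tested. The largest differences in each direction were those of Sulf1 and Chst15. Sulf1, which trims sulphate from heparan chains outside the cell, was at 5.2, 5.2, 3.9 and 3.26 FPKM in Lin+ and at 63.8, 53.6, 47.3 and 39.4 FPKM in Lin-, and Chst15, which adds it to chondroitin, at 17.2, 17.2, 5.06 and 6.79 FPKM in Lin+ and 3.04, 2.26, 1.57 and 1.43 FPKM in Lin-.

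Position along the chromosome was visible too. Runs of at least 5 neighbouring tested genes that were all called in one direction by at least 2-fold numbered 32, with 230 genes, of which 27 runs were higher in Lin+ and 5 were lower. Many of the higher runs were immune gene families. On chromosome 11, 9 neighbours that included Ccl3, Ccl4, Ccl6, Ccl9 and Wfdc17 rose (median 6.28), and 9 on chromosome 6 from Clec4a1 to Cd163 rose (median 5.31). On chromosome 9, 6 chemokine receptor genes rose, with Ccr2 at 115, 134, 185 and 78.2 FPKM in Lin+ and at 0.409, 0.293, 1.37 and 0.26 FPKM in Lin-. On chromosome 7, the Mrgpr run held the mast cell receptor Mrgprb2, at 6.43, 12.9, 4.17 and 9.6 FPKM in Lin+ and at 0.001, 0.0306, 0.001 and 0.0244 FPKM in Lin-. Within many of these families the members are close copies, so single values are uncertain there. A lower run of 7 genes on chromosome 9 held Thy1, the surface protein of mesenchymal cells, at 15.6, 13.4, 17 and 7.5 FPKM in Lin+ and at 137, 136, 105 and 108 FPKM in Lin-. A lower run of 5 on chromosome 1 held the collagen receptor Ddr2 (4.53 against 85.5 FPKM).

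The Hox clusters gave 2 of these runs, in opposite directions. Hox genes encode position along the body axis, are laid out in the order of the segments they specify, and often keep a regional pattern in adult cells. On chromosome 11, 7 genes from Hoxb3 to Hoxb9 were higher in Lin+ (median log2 difference 1.35). Hoxb7 was at 7.38, 11.5, 4.32 and 8.9 FPKM in Lin+ and at 0.45, 0.682, 0.27 and 0.253 FPKM in Lin-. Hoxb5 was at 2.89, 2.35, 2.4 and 5.21 FPKM in Lin+ and at 0.0964, 0.405, 0.0866 and 0.297 FPKM in Lin-. On chromosome 15, Hotair, a long noncoding RNA of the cluster, and 7 genes from Hoxc4 to Hoxc11 were lower (median -2.04). Hoxc10, a gene of the hindlimb and lumbar segments, was at 0.594, 0.914, 2.17 and 1.56 FPKM in Lin+ and at 11.6, 13.1, 30.6 and 33.3 FPKM in Lin-, and Hoxc6 was at 0.528, 0.812, 2.3 and 0.893 FPKM in Lin+ and at 6.26, 7.39, 13.7 and 15.6 FPKM in Lin-. In none of the Hoxc genes tested, and in none of Hoxb3 to Hoxb9, did the fractions overlap, although the call of Hoxc11 was lost in set B alone.

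**Figure D5:**
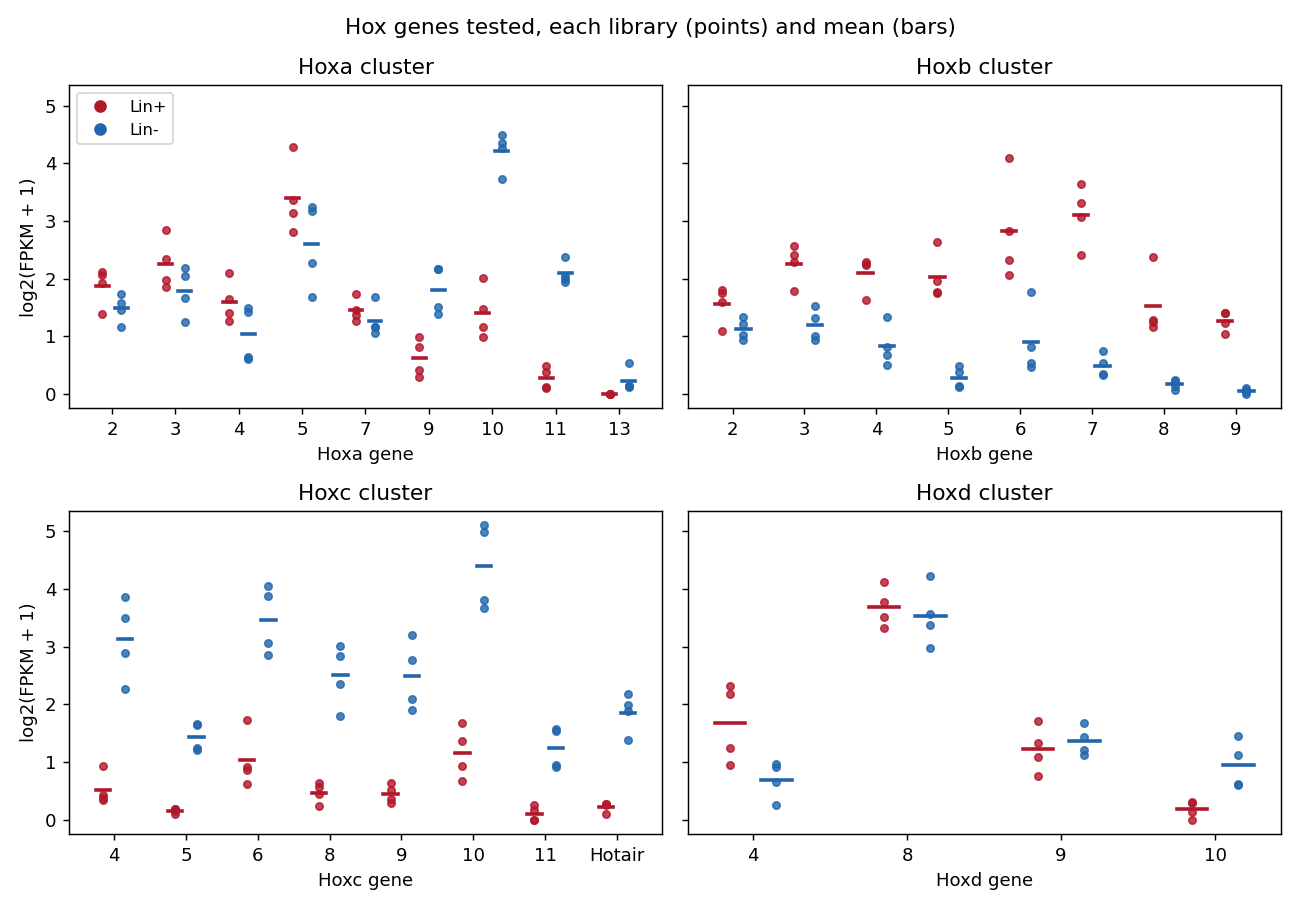
Level (log2(FPKM + 1)) of each tested Hox gene and Hotair in the 4 Lin+ (red) and 4 Lin- (blue) libraries, in the order of each cluster, with bars at the means. Hoxb genes were higher in Lin+ and Hoxc genes were lower, while Hoxa genes 9 to 11 were lower and Hoxa genes 2 to 7 overlapped.

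The other 2 clusters were examined after these values were seen. Over all 4 clusters, 28 of 39 Hox genes in the table were tested. All 8 tested Hoxb genes were higher, Hoxb2 with overlap and with its call lost without Lin+ replicate 1, 2 or 4 or Lin- replicate 1 or 3 (log2 differences of 0.35 to 0.42), and all 7 tested Hoxc genes were lower. In the Hoxa cluster 3 of 9 were lower and 6 were not called. The 3 were the posterior genes Hoxa9 (0.573 against 2.6 FPKM), Hoxa10 and Hoxa11 (0.212 against 3.28 FPKM). Hoxa10 was at 1.23, 0.987, 3.01 and 1.77 FPKM in Lin+ and at 12.2, 18.2, 19.3 and 21.5 FPKM in Lin-. Hoxa5, further forward in the cluster, was not called (10.4 against 5.62 FPKM) and was higher with the replicate block (adjusted p 0.0077). In the Hoxd cluster Hoxd4 was higher (2.44 against 0.65 FPKM), Hoxd10 was lower (0.139 against 0.987 FPKM) but not without Lin- replicate 3 (adjusted p 0.055), and Hoxd8, the most abundant of the 4, was not called (12.2 against 11.2 FPKM). The levels of many Hox genes were low, and overlapping antisense transcripts cannot be told apart where the counting did not use strand, which is not given in the sources used here.

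For some genes the difference was bounded closely. The 95% interval of the difference lay within 0.5 log2 units of 0 in 1640 genes (11.7%), and in 2991 with the replicate number as a block. The most abundant of them were the integrin chain Itgb1, the RNA-binding Hnrnpa2b1 and Hnrnph1, the respiratory chain subunits Cox6b1 and Cox8a, the ribosomal Rpl29, the lysosomal Lamp1, Morf4l1, Hsp90aa1 and Capns1. Itgb1 was at 195, 229.7, 206 and 245 FPKM in Lin+ and at 175, 183, 197 and 225 FPKM in Lin- (log2 difference 0.17 ± 0.15). The chaperone Hsp90aa1 was at 194, 258, 231 and 250.1 FPKM in Lin+ and at 226, 279, 271 and 239 FPKM in Lin- (log2 difference -0.12 ± 0.17). Neither pair of ranges was separated.

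Called genes could still vary widely within a fraction. In Lin+, Mmp8, the neutrophil collagenase, was at 47.6, 23.2, 299 and 14.3 FPKM, and Irg1, which makes itaconate in activated macrophages, was at 42.4, 25.2, 73.6 and 3.24 FPKM. Both were highest in replicate 3, as were the neutrophil markers. H2-Q7 and H2-Q8, near-identical class I genes, were at 4.82, 2.14, 67.9 and 55.6 FPKM and 37.7, 1.75, 9.995 and 0.001 FPKM, and the split between them is uncertain. Their ranges overlapped between the fractions, and the call of H2-Q7 was lost without Lin+ replicate 3 or 4 or Lin- replicate 1 or 2 (log2 differences of 1.69 to 2.13) and that of H2-Q8 without Lin+ replicate 1 (1.45). In Lin-, the fibre genes Rpl3l and Cox6a2 were at 5.49, 7.33, 54.1 and 20.6 FPKM and 9.33, 11.1, 90.1 and 35.3 FPKM, highest in replicate 3, the library with the largest share of myofibre genes. Cd24a was higher in Lin+ (208 against 35 FPKM) and was at 9.9996, 14.6, 91.9 and 23.4 FPKM in Lin-, again highest in replicate 3. Nbl1, a secreted BMP antagonist, was at 12, 9.21, 2.22 and 1.04 FPKM in Lin+ and at 130.4, 139, 31.8 and 23.7 FPKM in Lin-. It differed by set in both fractions, and yet was lower in Lin+ than in Lin- within each set.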

How the data were processed

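RNA of sorted cells was sequenced from stranded poly(A) libraries, per the labels' protocols. The submitters' processing notes name bcl2fastq, TopHat2, Bowtie2, Cufflinks and mm10, with neither roles nor versions, and whether counting used strand is not given in the sources used here. The authors deposited 1 table of 23846 gene entries in FPKM, which the authors scaled for length and mapped fragments. Status words stood in place of values in 311 entries for all libraries and in 14 for some. These were left out, which left 23521 entries, and 4 columns of values that match no sample were not used. The lowest listed value is 0.001 FPKM, so low values may stand for no estimate. Depth is unknown, and FPKM allow no counting interval.

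Genes with at least 1 FPKM in 3 of 19 libraries were tested with limma 3.58.1 (R 4.3.3) on log2(FPKM + 1), with a variance trend, in 1 fit of 5 groups with 14 residual degrees of freedom. Tests were two-sided, with Benjamini-Hochberg adjustment over 14043 genes, and a gene was called at an adjusted p under 0.05. Fold changes are on the log2(FPKM + 1) scale, which understates the change of low genes. A fraction's range is that of its 4 libraries, and fractions overlap where these ranges do.

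Gene lists, pairs and members were chosen with earlier results of these data known. Named genes follow fixed rules: the defining markers, the 12 largest differences each way among genes of at least 10 FPKM outside marker lists, up to 4 per function list and up to 2 against its majority, gene pairs, neighbouring runs, 10 genes present in 1 fraction only, 10 genes at equal level and 5 with the widest spread. Another 64 named genes were chosen after their values were seen. A few genes are not reported here.

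Replicate numbers paired the libraries: deviations from the fraction means correlated at 0.704, 0.575, 0.441 and 0.629 between same-numbered Lin+ and Lin- libraries. That pairing comes from the data, not the labels. Alternatives were other pseudocounts, filters, scalings and weights, a replicate block, a term for replicates 3 and 4, each set alone, and leaving out each library. Promoter letters are from RefSeq, matched by symbol for genes with 1 promoter in the table, 8173 of those tested. Figures were drawn with matplotlib 3.10.9 from tables made with pandas 2.3.3 in Python 3.11.15.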

Additional observations from a re-analysis of the deposited data

Results flagged for a closer look

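A library stood far from the other 3 of its fraction, by the gap to its neighbour over the whole range, in 36 of 520 groups of 4 libraries for the named genes. Chance flags about 1 in 20 groups. In Lin- replicate 3, the library with the most neutrophil and myofibre transcripts of its fraction, 12 genes stood apart. Alox5 was at 0.424 FPKM against 0.0176 to 0.084 FPKM in the others, Ccr2 at 1.37 against 0.26 to 0.409 FPKM and Cd24a at 91.9 against 9.9996 to 23.4 FPKM. Cybb was at 1.7 FPKM against 0.196 to 0.412 FPKM in the others, Itgam at 1.17 against 0.187 to 0.314 FPKM and Lcp1 at 6.91 against 0.902 to 1.22 FPKM. Lilrb4 was at 4.41 FPKM against 0.375 to 0.948 FPKM in the others, Mmp8 at 3.78 against 0.18 to 0.39 FPKM and Ncf4 at 0.521 against 0.0723 to 0.0902 FPKM. Parvg was at 0.967 FPKM against 0.132 to 0.236 FPKM in the others, Rac2 at 2.47 against 0.391 to 0.526 FPKM and Sema3c at 202 against 154 to 158 FPKM. In Lin+ replicate 3, the library with the largest neutrophil share, 8 genes stood apart. Cttn was at 9.61 FPKM against 21 to 22.1 FPKM in the others, Dock1 at 8.3 against 14.9 to 15.1 FPKM and Lcn2 at 1327 against 85.9 to 276 FPKM. Lyz1 was at 701 FPKM against 354 to 408 FPKM in the others, Mmp8 at 299 against 14.3 to 47.6 FPKM and Ntrk2 at 3.45 against 2.64 to 2.74 FPKM. Ptx3 was at 4.18 FPKM against 1.87 to 2.18 FPKM in the others and Tpm2 at 45.3 against 10.7 to 15.4 FPKM.

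In Lin+ replicate 4, 6 genes stood apart, among them both endothelial Sox genes. Ednrb was at 146 FPKM against 40.4 to 50.04 FPKM in the others, F13a1 at 449.6 against 182 to 205 FPKM and Gimap7 at 0.537 against 1.9 to 2.18 FPKM. Hoxc4 was at 0.913 FPKM against 0.26 to 0.339 FPKM in the others, Sox17 at 66.9 against 23.5 to 30.2 FPKM and Sox18 at 119 against 38.7 to 51.4 FPKM. In Lin- replicate 1, 3 genes did. Gfra2 was at 3.74 FPKM against 5.26 to 5.51 FPKM in the others, Gpx3 at 598 against 697 to 716 FPKM and H2-Q8 at 0.681 against 0.001 FPKM. In Lin- replicate 4, 4 genes did. Bcl2l1 was at 4.66 FPKM against 6.57 to 6.68 FPKM in the others, Cdh11 at 29.2 against 12.5 to 14.1 FPKM and Ctsc at 5.76 against 4.72 to 4.89 FPKM. Evc was at 9.41 FPKM against 13.6 to 13.7 FPKM in the others. The remaining values were in 2 other libraries. In Lin+ replicate 1, Capns1 was at 188 FPKM against 175 to 177 FPKM in the others and Hotair at 0.069 against 0.189 to 0.207 FPKM. In Lin- replicate 2, Pcdh12 was at 0.753 FPKM against 0.441 to 0.487 FPKM in the others. No cause was tested for any of these values.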

How the results depend on the processing

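The counts of 3558 genes higher and 3620 lower in Lin+ stayed within 1.5 times under all alternatives run, from 2757 to 4233 higher and from 2695 to 4255 lower. With the replicate number as a block they were 4233 and 4255, and with libraries left out 1 at a time they were 3295 to 3560 and 3269 to 3556. With a pseudocount of 5 the 2-fold counts were 1266 higher and 1013 lower, and with 0.1 they were 2405 higher and 2807 lower, so that which direction had more genes changed. The genes present in Lin+ and absent from Lin-, 80 in all, were 289 at limits of 5 and 1 FPKM, 32 at 20 and 0.5 FPKM, 221 in set A alone and 81 to 131 with 1 library left out. The reverse count of 2 was 95, 0, 19 and 2 to 5 under these, and 6 in set B alone. Runs of at least 4 neighbours numbered 73. Genes at equal level numbered 852 with a pseudocount of 0.1, 5321 with 5, 10232 with no filter, 1091 in a fit of the 2 fractions alone, 2991 with the replicate block, 2827 with a term for set B, 638 in set A alone, 473 in set B alone and 1269 to 1411 with 1 library left out. The cause was not tested, except that no filter adds genes near 0 and a higher pseudocount shrinks low genes. Of 231 named genes that were called, 15 lost the call under at least 1 alternative, 1 of them, Ptgs2, with the replicate block, and no named gene reversed. The replicate block also gave a call to Bax, Capg, Hoxa5 and Srebf2 and, beside Ptgs2 and the pair members given in the report, changed no other call of the named genes. Of 1932 list counts under alternatives, 40 moved by over 1.5 times. These include lower counts of 4 in set A alone for glycosaminoglycan synthesis, of 1 in either set alone for junctions and caveolae and of 5 with sample weights for iron and haem.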
